A study of Rattus norvegicus with 192 samples.

Results

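Psmb9 (ENSRNOG00000000459) and Ubd (ENSRNOG00000000768) are a pair of genes of protein breakdown, followed here through every tissue, genotype and diet in which their read counts were tabulated. They are 2 of 12563 genes in the 8 mRNA tables of the study, and their rows were chosen by name. Both were listed in the tables of the ZDF liver, lean liver, ZDF kidney, ZDF adipose tissue, lean adipose tissue and lean prefrontal cortex (PFC), Ubd alone in the lean kidney, and neither in the ZDF PFC. The rats were male Zucker diabetic fatty (ZDF, fa/fa) rats, an obese model of T2DM that lacks a working leptin receptor, and lean (fa/+) rats, which carry a single mutant copy. Each genotype was fed either a whole egg diet, in which dried whole egg was the protein source, or a casein diet, in which casein was the protein source and corn oil was added, with 6 of the 24 rats in each group of genotype and diet. Rats were housed in pairs and the cage was not in the labels. Diet was taken from the sample labels and genotype from the column names of the tables, and for 12 rats the strain in the sample labels was the other genotype. RNA was read with QuantSeq, which sequences the 3' end of polyadenylated transcripts from whole tissue, so fewer cells of a type and less RNA per cell cannot be told apart.

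Psmb9 encodes the interferon-inducible catalytic subunit (also called Lmp2) that takes the place of the constitutive beta 1 subunit when cells build the immunoproteasome, the form of the 20S proteasome that cuts peptides for loading on MHC class I molecules. Ubd encodes FAT10, a ubiquitin-like modifier that is joined to other proteins and takes them to the proteasome to be degraded together with itself. In cell culture, interferon gamma induces both genes, and for Ubd it acts together with TNF. FAT10 is best known from lymphoid organs and from inflamed or malignant human liver.

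Both genes lie on chromosome 20, within the MHC and its extended class I end. In the RefSeq annotation of GRCr8, Psmb9 stands between Tap1, which encodes a subunit of the peptide transporter, and RT1-DMb, with Psmb8, another immunoproteasome subunit, on the far side of Tap1. Ubd stands among olfactory receptor genes, between Olfr94-ps1 and Or2h2c. The windows from 250 bases before to 50 bases after each start were taken from RefSeq (GRCr8), where both members were matched, and are shown because the diet differences of the pair had opposite signs in the liver. They were searched on both strands for GAS (TTCNNNGAA), the ISRE (GAAA and GAAA with 2 bases between them), the IRF core (AANNGAAA), the NF-kB site and the TATA box (TATAAA), and matches are in capitals. The ISRE as spelled also holds the IRF core.
Psmb9, chr20:4668750-4669049, plus strand: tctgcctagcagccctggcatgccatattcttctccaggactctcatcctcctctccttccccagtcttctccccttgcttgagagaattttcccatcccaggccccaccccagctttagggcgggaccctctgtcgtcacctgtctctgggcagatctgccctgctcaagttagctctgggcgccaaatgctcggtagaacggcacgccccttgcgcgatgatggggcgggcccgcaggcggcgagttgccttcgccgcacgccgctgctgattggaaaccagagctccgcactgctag
Ubd, chr20:1392636-1392935, minus strand: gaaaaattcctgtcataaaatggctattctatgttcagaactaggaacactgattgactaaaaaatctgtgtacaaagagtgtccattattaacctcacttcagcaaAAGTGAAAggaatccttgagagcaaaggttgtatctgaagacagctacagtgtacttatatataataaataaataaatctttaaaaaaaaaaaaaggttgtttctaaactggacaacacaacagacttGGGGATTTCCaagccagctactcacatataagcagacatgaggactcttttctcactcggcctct
The Ubd window held an IRF core on its sense strand, which 26.4% of the 33469 windows of this length also held, and an NF-kB site near the start, which 7.5% held. The Psmb9 window held none of these strings, and GAS was found in 8.9%, the ISRE in 3.9% and the TATA box in 14.2% of windows. The Psmb9 window was GC-rich (62.0% G or C) and shared 44 bases with the window of Tap1 on the opposite strand, whereas that of Ubd had 35.0% G or C. These matches describe letters in a window and say nothing of what binds there.

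Depth differed widely between libraries. In the ZDF liver the total was 735993 to 9284567 reads per library, and elsewhere the shallowest libraries had an estimated 18487 reads in the ZDF adipose tissue of rat 11 (whole egg), 93983 in the ZDF PFC of rat 3 (casein) and 179070 in the ZDF kidney of rat 5 (casein). Only the ZDF liver table was used as unscaled counts. In the other 7 tables, 76 of 83 libraries had values that fit reads multiplied by a constant other than 1 and rounded, and reads were estimated by undoing that constant. Levels are in CPM, read counts scaled to a common library total, with TMM factors computed within a table, and a CPM from another table was normalised separately. The named tissue markers had their highest medians in their own tissue: Apoa1 was at 421 to 3527 CPM in the ZDF liver, Adipoq at 780 to 3265 CPM in ZDF adipose tissue and Mbp at 1515 to 6175 CPM in the lean PFC, while no kidney marker had a symbol here. Single libraries of other tissues also held them, in part the shallow ones named above. In the ZDF adipose tissue of rat 11 Apoa1 was at 1020 CPM, above the lowest ZDF liver, and Mbp at 501 CPM. Mbp was at 419 CPM in the ZDF kidney of rat 5, and Adipoq reached 622 CPM in the ZDF PFC. The part of these markers in the results was not tested. In lean adipose tissue the whole egg rats 6 and 13 stood apart, with Adipoq at 130 and 42.3 CPM against 2467 to 7352 CPM in the other 10 rats. Their Fabp4 was at 146 and 21.1 CPM against 2621 to 30052 CPM. The diet differences of the members and their genotype differences on whole egg are therefore also given without rats 6 and 13. The ratio, the correlation, the marker differences and the interferon lists of that tissue include both rats.

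**Figure D1:**
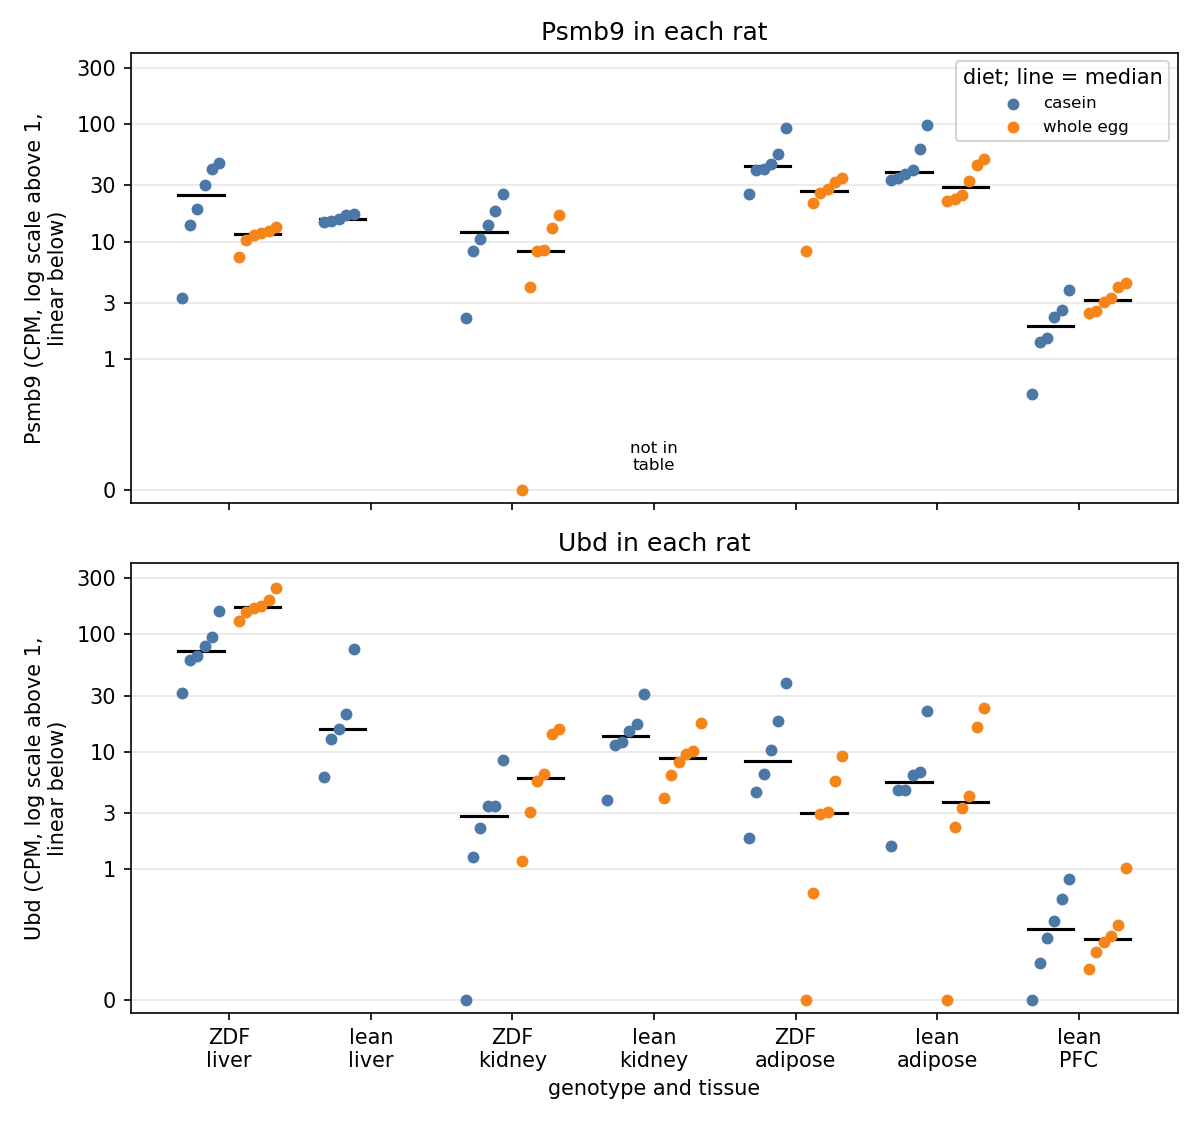
Psmb9 (top) and Ubd (bottom) in each rat, in CPM on an axis that is logarithmic above 1 and linear below, by genotype and tissue; points are rats on casein (blue) or whole egg (orange) and lines are medians. The Ubd medians are highest in the ZDF liver, at 71.9 CPM in casein-fed rats and 171 CPM in whole egg-fed rats, and the Psmb9 medians are highest in adipose tissue.

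In the liver of ZDF rats Ubd rose 2.18-fold on the whole egg diet. Psmb9 had the opposite sign, 2.38-fold lower, but missed the FDR of 5%. Ubd was at 31.7, 71.9 and 156 CPM (lowest, median and highest; n = 6) on casein and at 128, 171 and 247 CPM in whole egg-fed rats. The groups overlapped only through rat 24, the highest of the casein rats, whose 156 CPM lay above the 2 lowest whole egg rats. The difference was 1.12 on the log2 scale (SE 0.26, 95% interval 0.60 to 1.65, edgeR adjusted p = 0.0102 over 9722 genes), against a background of 2.93% of genes called in either direction and 2.22% whose groups did not overlap at all. The group means were 81.0 ± 42.2 CPM in casein-fed rats and 178 ± 40.6 CPM in whole egg-fed rats (SD, n = 6 each). The paper had already listed both genes as changed by diet in these ZDF livers, Ubd higher and Psmb9 lower. The tests of the pair in this tissue are therefore not independent evidence of a difference or of its direction.

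Psmb9 was at 3.28, 24.7 and 46.5 CPM (lowest, median and highest; n = 6) on casein and at 7.33, 11.6 and 13.4 CPM in whole egg-fed rats. A single library made the groups overlap: rat 14, the shallowest of the liver libraries, gave 3 Psmb9 reads of 735993, and its exact Poisson interval (95%, counting error only) reached from 0.677 to 9.59 CPM. The next lowest casein rat, rat 24 at 13.9 CPM, was above every whole egg rat. The whole egg rats were tightly grouped, with an SD of 2.09 CPM against 16.7 CPM in casein-fed rats. The difference was -1.25 on the log2 scale (SE 0.38, 95% interval -2.03 to -0.47, edgeR adjusted p = 0.0759). Without rat 14 it was -1.46 with an edgeR adjusted p of 0.00297, and DESeq2 gave -1.27 with an adjusted p of 0.0295 over all rats. Rats 14 and 24 are also the 2 of 6 casein rats whose sample label gives the lean strain, as it does for 4 of the 6 whole egg rats, and the other 4 casein rats lay at 19.0 to 46.5 CPM. With the label strain as a term, added after the data were seen, the Psmb9 difference was -0.73 (unadjusted p = 0.0926, edgeR adjusted p = 0.510) and that of Ubd 1.11 (edgeR adjusted p = 0.0189). Over all alternatives and rats left out the adjusted p of Psmb9 ran from 0.00297 to 0.510, and limma on log2 CPM gave -0.82 (adjusted p = 0.456).

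**Figure D2:**
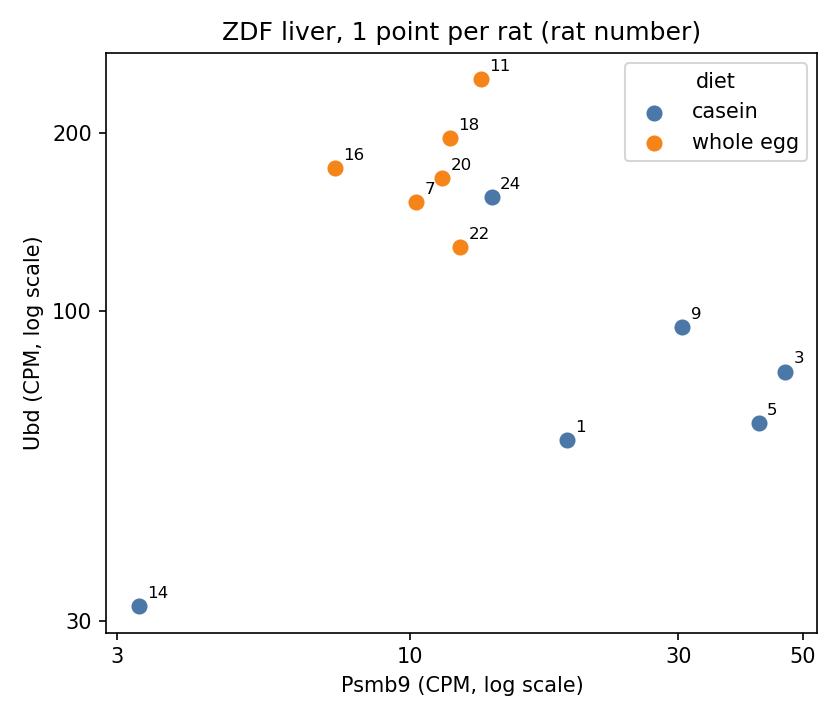
Psmb9 against Ubd in the ZDF liver, both in CPM on log axes, with 1 point per rat and the rat number beside it (casein blue, whole egg orange). The 6 whole egg rats sit together at the top, between 7.33 and 13.4 CPM of Psmb9, rat 24 (casein) sits next to them, and rat 14 (casein) is lowest for both genes.

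Because both genes were read in the same library, the log2 ratio of Ubd to Psmb9 (1 CPM added to each) hardly depends on library scaling. QuantSeq gives about 1 read per transcript whatever its length, but the ratio is one of reads. Whether transcripts of the 2 genes are read equally well was not tested. In the ZDF liver it was 1.82 ± 1.13 on casein and 3.88 ± 0.37 on whole egg (SD, n = 6 each), a 4.17-fold higher ratio on whole egg. The range was 0.62 to 3.39 on casein and 3.29 to 4.40 on whole egg, so that only the highest casein rat reached the whole egg range. In the ZDF kidney the ratio was -1.81 ± 1.35 on casein and -0.0043 ± 1.19 on whole egg. In ZDF adipose tissue the values were -2.24 ± 1.10 and -2.76 ± 1.74, and in lean adipose tissue -2.78 ± 1.20 and -2.53 ± 1.70, differences smaller than the spread between rats. In the lean PFC, where Ubd had 0 to 4 reads, they were -0.98 ± 0.46 and -1.50 ± 0.43. The lowest whole egg value of ZDF adipose tissue, -5.15, was that of rat 11, with 1 Psmb9 read and 0 Ubd reads in 18487 estimated reads. Without that rat the difference in ZDF adipose tissue (whole egg minus casein) was -0.038, against -0.52 with it. With 0.1 CPM added instead of 1, the difference (whole egg minus casein) went from 1.81 to 2.93 in the ZDF kidney, from -0.52 to -1.18 in ZDF adipose tissue and from 0.26 to -0.23 in lean adipose tissue, while it was 2.09 in place of 2.06 in the ZDF liver and -0.55 in place of -0.53 in the lean PFC. The ratio is given without a test, since the pair was proposed with its liver values known.

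The relation of the 2 genes from rat to rat turned on single libraries. Over the 12 ZDF livers Pearson's r of log2 CPM was -0.054 (permutation p = 0.863, adjusted 0.863 over 5 tables) and Spearman's rho was -0.29 (permutation p = 0.364). Without rats 3 and 14, the farthest from the median of Psmb9, r was -0.75, and without rat 14 alone it was -0.77, so the pooled value rests on that library. The permutation mixed the 2 diets, and the pair was proposed with its liver values known. A pooled r therefore also carries the opposite diet differences, and its p is not independent evidence of a relation. Within a diet r was 0.49 on casein (exact permutation p = 0.30) and 0.22 on whole egg (exact permutation p = 0.633). The casein value includes rat 14, the lowest casein rat for both genes, with 3 Psmb9 reads. Of the remaining casein rats, rat 24 had the lowest Psmb9 (13.9 CPM) and the highest Ubd (156 CPM). The casein r without rat 14 was not calculated, so its positive sign should not be relied on. In the other 4 tables r lay between 0.10 and 0.33, with adjusted permutation p of 0.789 to 0.863, and rho lay between -0.042 and 0.19 with permutation p of 0.557 to 0.905. Without the 2 rats farthest from the median of Psmb9, r in those tables was -0.18 to 0.14.

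Beside the pair, other interferon-response genes of the ZDF liver were lower on whole egg. Of 56 genes on the lists of the interferon gamma and type I interferon responses, 18 had a symbol and were measured, all 18 had a negative difference and 12 fell at the FDR of 5%, with a median of -1.62 against -0.0016 over all genes tested (1.29% of all genes fell). These symbols came from the genes the study had found changed, mostly in these livers. Neither the count nor the median beside that of all genes is therefore independent evidence of a direction. All 6 measured genes of the interferon gamma list fell. Lgals9, which encodes the lectin galectin-9, had a log2 fold change of -1.59, Cxcl9, a chemokine that draws T cells, of -2.14, Apol3, of the apolipoprotein L family, of -1.11, and Irf1, a transcription factor that interferon gamma induces, of -1.52 (edgeR adjusted p of 7.43e-05 to 0.00681). Of the 12 measured genes of the type I list 6 fell, among them Phf11, a PHD finger protein (-2.28), Slfn4, a schlafen (-2.01), Mx2, an antiviral GTPase (-2.48), and Rtp4 (-1.64), with edgeR adjusted p of 0.00255 to 0.0280. Psmb9 at -1.25 lay within the range of these 18 genes, -3.33 to -0.43, and Ubd at 1.12 lay outside it. List genes without a symbol could not enter this range, so it does not describe the interferon response as a whole.

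**Figure D3:**
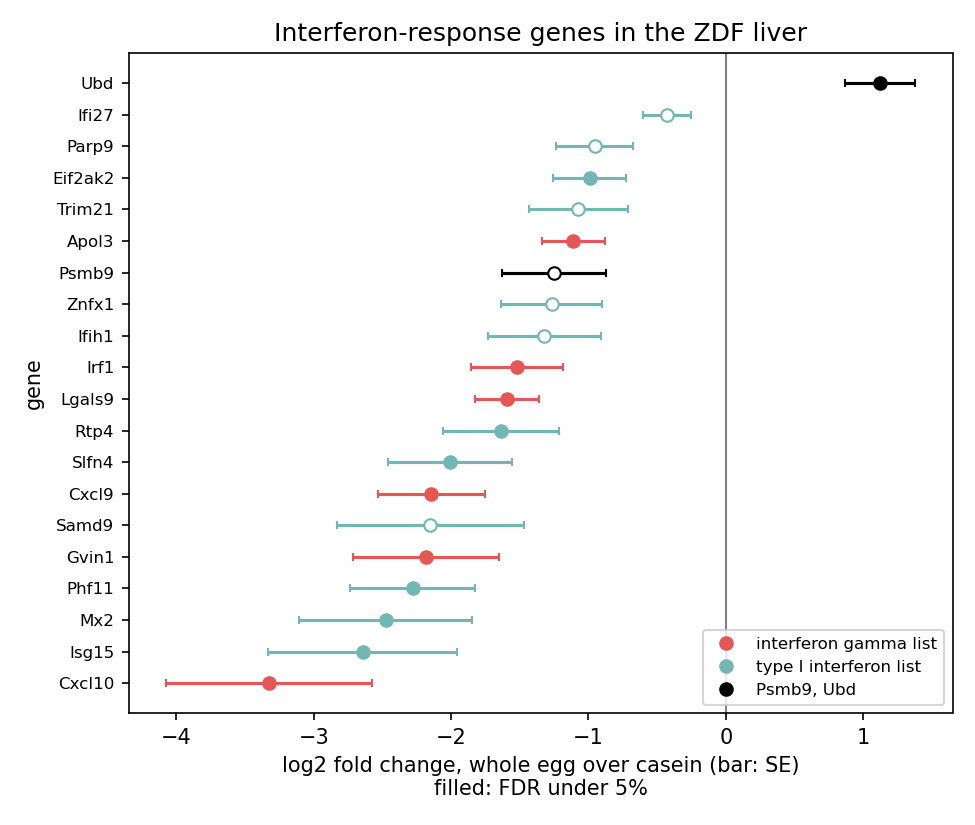
Log2 fold change, whole egg over casein, in the ZDF liver for Psmb9, Ubd (black) and 18 genes of the interferon gamma (red) and type I interferon (teal) lists; bars are SE and filled points passed the FDR of 5%. All 18 list genes and Psmb9 lie left of 0, and Ubd alone lies right of it at 1.12. The 18 genes had a symbol through the study's list of changed genes, so their side of 0 is not independent evidence.

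The summed level of the 6 interferon gamma genes was 138 to 405 CPM in casein-fed rats and 64.0 to 88.1 CPM in whole egg-fed rats, a separation that the choice of genes already set, since they had a symbol through the study's list of changed genes. The same holds for the cell type markers that follow, whose direction in these livers is therefore not independent evidence. Of these, Ighm, Apoa1, Lyz2 and Mbp were lower on whole egg past the FDR of 5%. Lyz2, the only named gene of 13 on the macrophage list, was at 16.3 to 55.7 CPM in casein-fed rats and 7.89 to 19.8 CPM in whole egg-fed rats, and Ighm, the only named gene of 6 on the B and plasma cell list, at 7.66 to 86.0 and 1.63 to 5.78 CPM. The hepatocyte marker Apoa1, 1 of 5 on its list (1800 to 3527 CPM in casein-fed rats, 421 to 1484 CPM in whole egg-fed rats), the sum of the adipocyte markers Adipoq and Fabp4, 2 of 5 (9.23 to 62.4 and 7.89 to 27.3 CPM) and the sum of the brain markers Mbp and Rtn1, 2 of 5 (20.5 to 80.2 and 14.9 to 32.7 CPM), lay lower by their ranges, though Adipoq, Fabp4 and Rtn1 did not pass. No gene of the T and NK cell list had a symbol, and the part of these markers in the Psmb9 and Ubd results was not tested. RT1-Ba, the only named gene of the 8 on the class II list and a chain of an MHC class II molecule, was at -1.08 (edgeR adjusted p = 0.0992). Besides the members, no gene of the immunoproteasome, 20S proteasome, FAT10 conjugation, class I or TNF lists had a symbol.

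As a description of likeness, the log2 CPM of each member over the 12 ZDF livers was compared with 475 genes that had a symbol and at least 5 CPM on average. The closest to Psmb9 were Cemip2 (Pearson's r = 0.93), Sdr16c6 (0.88), Cldn1 (0.87), which encodes a tight junction protein, Abcb10 (0.83), a mitochondrial transporter, and Acp3 (0.81). The closest to Ubd were Creg1 (0.92), Gsta3 (0.91), an alpha class glutathione transferase, Anxa4 (0.91), an annexin, and Homer2 (0.91). The libraries share depth and diet groups, and most of the genes compared had been picked by the study for a diet difference.

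In the kidney, with 0 to 22 estimated Ubd reads per ZDF library and 3 to 80 per lean library, no diet difference passed. In ZDF rats Ubd was at 0, 2.85 and 8.49 CPM in casein-fed rats and at 1.18, 6.03 and 15.7 CPM in whole egg-fed rats (lowest, median and highest; n = 6 each). The casein rat without a read, rat 5, had so few reads that 0 allows up to 19.4 CPM (3 reads, counting error only). The whole egg and casein ranges overlapped in ZDF rats (0.2% of genes had none), and the difference was 0.93 (95% interval -0.28 to 2.15, limma adjusted p = 0.920), beside a shift of 0.11 in the median of all genes and 0% of genes called by limma (368 genes at an unadjusted p under 0.05, 0 called by edgeR on estimated reads and 1 by DESeq2). In lean rats Ubd was at 3.93, 13.6 and 30.7 CPM in casein-fed rats and at 4.05, 8.89 and 17.6 CPM in whole egg-fed rats, and the difference of -0.54 (95% interval -1.64 to 0.55, limma adjusted p = 0.990) also crossed 0, with 0% of genes called (262 at an unadjusted p under 0.05, 0 called by edgeR on estimated reads and 1 by DESeq2). The 2 differences pointed in opposite ways, but their own difference, 1.43 (95% interval -0.14 to 3.01), had an unadjusted p of 0.0736 and a limma adjusted p of 0.978, beside a median of 0.17 over all genes, of which limma called 0% (278 at an unadjusted p under 0.05, 0 called by DESeq2). With the strain of the sample labels as genotype it was 0.49 (unadjusted p = 0.600, limma adjusted p = 0.999). Over both genotypes the diet difference of Ubd was 0.18 (95% interval -0.64 to 0.99, limma adjusted p = 0.994), with 0.0294% of genes called. Psmb9 in the ZDF kidney was at 2.24, 12.1 and 25.5 CPM in casein-fed rats and at 0, 8.34 and 16.9 CPM in whole egg-fed rats, where 0 reads in rat 22 allow up to 3.16 CPM, and its difference was -0.67 (95% interval -1.98 to 0.64, limma adjusted p = 0.920), or -0.23 with the label strain as a term (limma adjusted p = 1.00). All 6 measured markers of other cell types had a negative difference in the ZDF kidney. The brain markers Mbp and Rtn1 were at -1.63 and -1.58 (unadjusted p of 0.00658 and 0.00363), the adipocyte markers Fabp4 and Adipoq at -1.35 and -0.83 (unadjusted p of 0.00528 and 0.119), the macrophage marker Lyz2 at -0.88 (unadjusted p = 0.0106) and the hepatocyte marker Apoa1 at -0.75 (unadjusted p = 0.189), each with a limma adjusted p of 0.920. The highest Mbp, Rtn1, Adipoq and Fabp4 (419, 318, 159 and 159 CPM) were all in the casein library of rat 5, with 179070 estimated reads. The marker differences without rat 5 and the part of the markers in the result were not tested.

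In adipose tissue none of the diet differences passed the FDR. The Psmb9 difference was negative in both genotypes and that of Ubd in ZDF rats, while for Ubd in lean rats the sign depended on the test. Psmb9 in ZDF rats was at 25.4, 43.4 and 92.7 CPM in casein-fed rats and at 8.36, 26.8 and 34.6 CPM in whole egg-fed rats (lowest, median and highest; n = 6 each). The groups overlapped through the lowest casein rat, rat 5, which lay below 4 whole egg rats, and 0.656% of genes had no overlap. The difference was -0.98 (95% interval -1.98 to 0.020, unadjusted p = 0.0541, limma adjusted p = 0.843), with 0.0129% of genes called and a median of -0.38 over all genes, so relative to all genes it was smaller. Ubd in ZDF rats was at 1.84, 8.42 and 38.3 CPM in casein-fed rats and at 0, 3.03 and 9.16 CPM in whole egg-fed rats, a difference of -1.48 (95% interval -2.99 to 0.038, limma adjusted p = 0.843) that was -0.54 by limma-voom with sample quality weights (unadjusted p = 0.437, adjusted p = 0.779). The whole egg library of rat 11 held a single Psmb9 read and no Ubd read in 18487 estimated reads, where 0 reads allow up to 86.4 CPM. Without it the differences were -1.10 for Psmb9 and -1.14 for Ubd, with a limma adjusted p of 0.449 and 0.683. Lyz2, the only named gene of the macrophage list, had a difference of -1.44 in the same libraries (means of 4777 CPM in casein-fed rats and 2457 CPM in whole egg-fed rats, unadjusted p = 0.0481, limma adjusted p = 0.843), and the brain marker Rtn1 one of 0.90 (unadjusted p = 0.0318, limma adjusted p = 0.843). The lowest Lyz2 (173 CPM) and the highest Rtn1 (346 CPM) were both in the library of rat 11. Adipoq, Fabp4, Mbp, Apoa1 and Ighm had unadjusted p of 0.0878 to 0.947. The marker differences without rat 11 and the part of the markers in the result were not tested.

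In lean adipose tissue Psmb9 was at 33.6, 38.9 and 97.4 CPM in casein-fed rats and at 22.2, 28.9 and 50.5 CPM in whole egg-fed rats. Of the 6 whole egg rats, 4 lay below every casein rat and the other two, rats 6 and 13, lay within the casein range. The difference was -0.56 (95% interval -1.40 to 0.29, limma adjusted p = 0.838), with 0% of genes called (458 at an unadjusted p under 0.05, 0 called by edgeR on estimated reads and 15 by DESeq2). Rats 6 and 13 are the libraries low in adipocyte markers, and without them the difference was -0.85 (unadjusted p = 0.0482, limma adjusted p = 0.998). Ubd ranged from 1.58 to 22.3 CPM in casein-fed rats and from 0 to 23.7 CPM in whole egg-fed rats (means of 7.73 and 8.28 CPM), with a difference of -0.29 (95% interval -1.84 to 1.25) whose sign turned under edgeR on estimated reads (0.036) and which was -0.60 without rats 6 and 13. The whole egg rat without a Ubd read, rat 21, allows up to 1.32 CPM. Lyz2 had a difference of -1.66 in lean adipose tissue (means of 1674 CPM in casein-fed rats and 586 CPM in whole egg-fed rats, unadjusted p = 0.0271, limma adjusted p = 0.833), and Fabp4 one of -2.81 (unadjusted p = 0.0275, limma adjusted p = 0.833). Both include rats 6 and 13, whose Fabp4 of 146 and 21.1 CPM lay below that of the other 10 rats. Neither was tested without them. Adipoq, Mbp, Rtn1, Apoa1 and Ighm had unadjusted p of 0.0957 to 0.961, and the part of these markers in the result was not tested. Over both genotypes Psmb9 differed by -0.79 (SE 0.30, 95% interval -1.41 to -0.18, unadjusted p = 0.0132, limma adjusted p = 0.647), beside a median of -0.19 over all genes, and Ubd by -0.90 (95% interval -1.97 to 0.17, limma adjusted p = 0.703), with 0% of genes called (530 at an unadjusted p under 0.05 and 16 called by DESeq2). Without rats 6 and 13 the values were -0.96 and -1.11 (limma adjusted p of 0.701 and 0.703). The diet differences of the genotypes did not differ detectably (-0.53 for Psmb9 and -1.19 for Ubd, ZDF minus lean, limma adjusted p of 0.905 and 0.899), with intervals from -1.76 to 0.71 and from -3.32 to 0.95, beside a median of -0.40 over all genes, of which limma called 0% (289 at an unadjusted p under 0.05 and 1 called by DESeq2 or edgeR on estimated reads). Without rats 6 and 13 these were -0.22 and -0.87.

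The lean PFC held little of either gene. Psmb9 was at 0.736, 1.90 and 3.86 CPM in casein-fed rats and at 2.45, 3.18 and 4.48 CPM in whole egg-fed rats, which is 3 to 17 reads per library. The whole egg rats were on the whole higher, but 2 casein rats lay within their range. The difference was 0.63 (95% interval -0.033 to 1.30, unadjusted p = 0.0612, limma adjusted p = 0.995), with 0% of genes called (409 at an unadjusted p under 0.05, 0 called by edgeR on estimated reads or DESeq2). Ubd had 0 to 4 reads per library (0 to 1.02 CPM), and its difference of 0.047 has an interval from -0.67 to 0.76, so no diet difference was detectable at this depth.

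**Figure D4:**
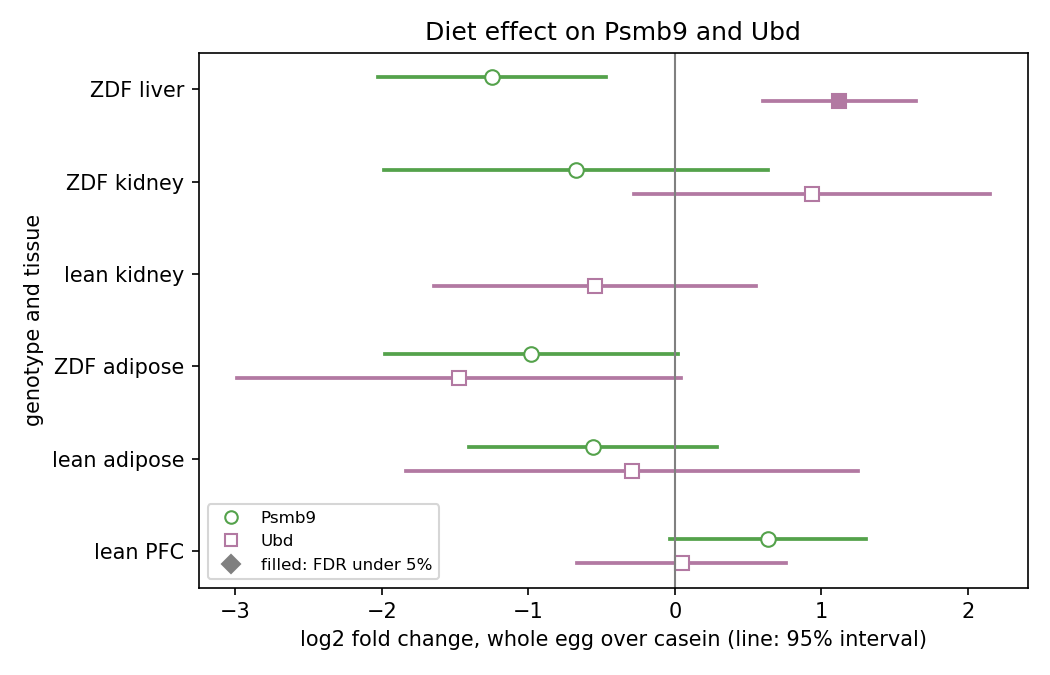
Log2 fold change, whole egg over casein, of Psmb9 (green circles) and Ubd (purple squares) by genotype and tissue, with 95% intervals; a filled symbol passed the FDR of 5%. Ubd in the ZDF liver (1.12) is the filled symbol, and every interval outside the liver includes 0.

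The estimated Ubd difference did not have the same sign in all tissues of the ZDF rats, though only the liver interval excluded 0. In a comparison added after the data were seen, the diet difference of Ubd was 2.63 higher on the log2 scale in the liver than in adipose tissue (95% interval 0.97 to 4.29, unadjusted p = 0.00274) and 2.42 higher in the kidney than in adipose tissue (95% interval 0.76 to 4.08, unadjusted p = 0.00539). Neither passed the adjustment over 6207 genes (limma adjusted p of 0.516 and 0.554), where 0.0806% and 0% of genes were called (549 at an unadjusted p under 0.05 for the second, 2 called by edgeR on estimated reads), and the medians over all genes were 0.39 and 0.41. Between liver and kidney it differed by 0.21 (95% interval -1.46 to 1.87). For Psmb9 the 3 differences between tissues lay between -0.11 and 0.28, with limma adjusted p of 0.909 to 0.999. These fits include the adipose library of rat 11 and the kidney library of rat 5. They held 0 Ubd reads in 18487 and 179070 estimated reads.

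The level of Ubd set the liver of ZDF rats apart from the other tissues. With the ZDF libraries of the liver, kidney and adipose tissue normalised together, Ubd was higher in the liver by 4.97 on the log2 scale against the kidney (SE 0.46, limma adjusted p = 3.55e-12, 35.1% of genes called) and by 4.94 against adipose tissue (SE 0.46, limma adjusted p = 3.52e-12, 47% of genes called). The CPM that follow were normalised within each tissue and not together. On that scale every liver library, from 31.7 CPM, was above every kidney library, up to 15.7 CPM. In adipose tissue the highest rat, rat 14 at 38.3 CPM, reached into the range of the liver through that same rat's own liver, which was the lowest. Libraries without a Ubd read allow up to 19.4 CPM in the kidney (rat 5) and 86.4 CPM in adipose tissue (rat 11), the latter within the liver range. Kidney and adipose tissue did not differ beyond their spread (-0.035, 95% interval -0.97 to 0.90). Psmb9 took another order: adipose tissue and liver did not differ beyond their spread (liver minus adipose -0.34, 95% interval -1.14 to 0.46, limma adjusted p = 0.506), and the kidney was lower than adipose tissue (-1.54, SE 0.39, limma adjusted p = 0.00167, 38.6% of genes called) and than the liver (liver minus kidney 1.20, SE 0.39, limma adjusted p = 0.0146). With library size as the only scaling, the liver and kidney did not pass (0.79, limma adjusted p = 0.154) and the liver was below adipose tissue (-1.09, limma adjusted p = 0.0343).

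On casein, 4 of 5 lean rats had less Ubd in the liver than every ZDF rat, yet the difference missed the FDR. The lean liver table named casein rats alone, 6 ZDF and 5 lean, so diet could not be compared in the lean liver. In this table Ubd was at 33.2 to 162 CPM in ZDF rats (median 72.9) and at 6.12, 12.9, 15.6, 21.0 and 75.2 CPM in the 5 lean rats. Rat 15, the lean rat at 75.2 CPM, was the only lean rat within the ZDF range. The difference was 1.96 (SE 0.48, 95% interval 0.97 to 2.96, unadjusted p = 0.000585, limma adjusted p = 0.237), with 0.0123% of genes called, and without rat 15 it was 2.46 with a limma adjusted p of 0.00847. With the strain of the sample labels in place of the column names it was -0.70 (limma adjusted p = 0.747), so it rests on the genotype of the column names. Psmb9 in the lean livers was even, from 14.7 to 17.1 CPM, while the ZDF livers on casein ran from 3.90 to 48.0 CPM, and the difference was 0.37 (95% interval -0.65 to 1.38, limma adjusted p = 0.966), or 1.11 with the strain of the sample labels (unadjusted p = 0.0205, limma adjusted p = 0.431).

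In the kidney the genotypes stood the other way. Ubd on casein was lower in ZDF than in lean rats (-2.05, SE 0.55, 95% interval -3.16 to -0.94, unadjusted p = 0.000659), the second smallest p of 6797 genes, but the limma adjusted p was 0.999 and 0% of genes were called (291 at an unadjusted p under 0.05, 0 called by DESeq2). The ZDF rats lay between 0 and 8.49 CPM and the lean rats between 3.93 and 30.7 CPM, with overlap, and with the strain of the sample labels the difference was -0.61. On whole egg it was -0.62 (95% interval -1.73 to 0.50, limma adjusted p = 1.00), with 0% of genes called (244 at an unadjusted p under 0.05 and 2 called by DESeq2). In adipose tissue no genotype difference of either member was detectable: on casein the differences were -0.061 for Psmb9 (95% interval -0.93 to 0.81) and 0.43 for Ubd (95% interval -1.08 to 1.94), with 0.0947% of genes called (0.0811% higher in ZDF rats), and on whole egg they were -0.59 (95% interval -1.46 to 0.29) and -0.76 (95% interval -2.26 to 0.75), with 0.0135% called and a median of -0.35 over all genes. Without rats 6 and 13 the differences on whole egg were -0.28 and -0.44.

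The interferon-response lists outside the ZDF liver had no called member in any tissue or genotype by limma. Of the list genes with a symbol, 9 were measured in the ZDF kidney, 14 in ZDF adipose tissue, 9 in the ZDF PFC, 9 in the lean kidney, 16 in lean adipose tissue and 13 in the lean PFC. At an unadjusted p under 0.05 there were 3 lower genes in the ZDF kidney, 0 in ZDF adipose tissue, 1 in the ZDF PFC, 1 in the lean kidney, 2 in lean adipose tissue and 0 in the lean PFC, and no higher ones. Over all genes the share at that p was 4.91% in the ZDF kidney, 4.66% in ZDF adipose tissue, 7.33% in the ZDF PFC, 3.44% in the lean kidney, 5.21% in lean adipose tissue and 3.59% in the lean PFC. In adipose tissue 12 of 14 list genes in ZDF rats and 12 of 16 in lean rats had a negative difference, with medians of -0.61 and -0.49 against -0.38 and -0.020 over all genes. In the ZDF kidney 6 of 9 were negative, with a median of -0.071 against 0.11 over all genes.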

How the data were processed

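QuantSeq libraries came from 4 tissues (liver, kidney, adipose and PFC) of 24 rats. Per the study's methods, the authors checked reads with FastQC, trimmed them, aligned them with STAR to the rat Ensembl genome and counted reads per gene; for tool versions and for the use of strand in counting, the entry is "not given in the sources used here". The authors deposited the tables as raw counts after discarding genes by the number of samples without a read. Only the ZDF liver table was used as counts. The values the authors deposited in the other 7 tables were treated as a score: reads times a constant per library, rounded. In the 7 libraries that stand in both liver tables this held for 100% of 8094 shared genes. The constant was estimated from gaps and doublings among low values (other than 1 in 76 of 83 libraries, 0.4095 to 1.636, and taken as 1 in the rest), and for those 7 libraries it came within 0.00045 of the exact one. Deposited comparison and microRNA tables were not used.

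The planned test, edgeR 4.0.16 (quasi-likelihood, two-sided, TMM) on counts, was run on the ZDF liver, leaving out a lean rat's library in that table. The scaled tables were tested with limma 3.58.1 (trended variance) on log2 CPM with TMM factors and a prior count of 2, and joint fits over tables used estimated reads. Fold changes on that scale understate low genes. P-values were adjusted over all genes of a fit (Benjamini-Hochberg, FDR of 5%). Tests were tried on simulated data. Rats pair the tissues, since a number is the same animal; same-rat deviations correlated weakly (median r of 0.0014 to 0.036 over 12 rats per pair of tissues). The alternatives tried were DESeq2 1.42.0 (own size factors, or TMM factors), limma-voom, RLE factors, library size alone, a minimum of 10 counts in 6 libraries, the strain of the labels, rat as a block, 0.1 CPM in the ratio, and leaving out each rat; edgeR on estimated reads, a prior count of 0.5, limma in the ZDF liver, leaving out rats 6 and 13, the label strain as a term in the diet fits, and the comparison of diet differences between tissues were added after seeing the data. Permutations (100000, or 10000 with a rat left out; exact within a diet) used numpy 2.4.6 in Python 3.11.15. Intervals are 95%.

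The members, gene lists and tests were chosen with earlier results of these data known. Symbols came from 550 pairs of ID and name in the study's list of changed genes. The text names both members in each comparison, up to 4 called genes of a list with the smallest p, and the 5 genes most like each member, of which 1 is not reported here.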

Additional observations from a re-analysis of the deposited data

Results flagged for a closer look

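Of 24 sets of rats checked (1 gene in 1 group of tissue, genotype and diet), 2 had a rat far from the others in CPM. Chance was taken to give about 1 in 20, a rate that was not tested on these values. In the lean liver on casein, Ubd was at 75.2 CPM in rat 15, against 21.0 CPM in the next rat. In lean adipose tissue on casein, Ubd was at 22.3 CPM in rat 4, against 6.67 CPM in the next.

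Of 9 tested differences between diet effects, 2 had an unadjusted p under 0.05: the diet effect on Ubd in ZDF rats was 2.63 higher (log2) in the liver than in adipose tissue (limma, unadjusted p = 0.00274, adjusted p = 0.516), and 2.42 higher in the kidney than in adipose tissue (limma, unadjusted p = 0.00539, adjusted p = 0.554).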

How the results depend on the processing

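Of 251 values of the 48 results under alternatives other than leaving out a rat, 235 kept their sign and side of the FDR of 5% where there was a test, moved by less than 1 SD between rats for the ratio, or stayed within 1.5 times for a count of genes. Values so counted can still move: the ratio difference in lean adipose tissue, smaller than the spread, turned from 0.26 to -0.23 with 0.1 CPM added and ran from -0.26 to 0.69 without 1 rat. Ubd in the ZDF liver passed under both DESeq2 fits, the count minimum, limma-voom, RLE factors, limma and the label strain as a term (adjusted p of 0.00238 to 0.0189), and without each rat (edgeR adjusted p of 0.000508 to 0.0383). Psmb9 in the ZDF liver passed under DESeq2 with its own size factors (-1.27, adjusted p = 0.0295) and with TMM factors (-1.24, adjusted p = 0.0354). With library size as the only scaling, Psmb9 in liver against kidney no longer passed (0.79) and in liver against adipose tissue passed (-1.09). The sign turned for Ubd in lean adipose tissue under DESeq2 (0.064), DESeq2 with TMM factors (0.047) and edgeR on estimated reads (0.036). With the strain of the sample labels it turned for the genotype difference in the adipose diet effect (Psmb9 0.28, Ubd 1.44), for ZDF over lean adipose tissue on casein (Ubd -0.14) and on whole egg (Psmb9 0.085, Ubd 1.30), and for Ubd in the liver on casein (-0.70). It also turned for the liver minus kidney diet effect with a prior count of 0.5 (Psmb9 0.18, Ubd -0.16) and for the liver minus adipose diet effect of Psmb9 under edgeR on estimated reads (-0.14). Apart from the changes that follow from the relabelled rats, the cause was not tested.

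Leaving out each rat kept 683 of 718 values by the same measure. The values ran from -1.46 to -1.03 for Psmb9 in the ZDF liver, -0.71 to 0.19 for Ubd in lean adipose tissue, -0.12 to 0.14 for Ubd in the lean PFC, -0.28 to 0.15 for Psmb9 in ZDF over lean adipose tissue on casein, 1.60 to 2.46 for Ubd in ZDF over lean liver on casein, and -0.40 to 0.25 for Ubd in kidney over adipose tissue. For diet effects between tissues they ran from -0.70 to 0.21 (Psmb9) and -0.13 to 0.52 (Ubd) for liver minus kidney, -0.50 to 0.54 (Psmb9) for liver minus adipose tissue and -0.052 to 0.58 (Psmb9) for kidney minus adipose tissue. Pearson's r ran from -0.77 to 0.093 in the ZDF liver, -0.011 to 0.52 in ZDF adipose tissue, -0.13 to 0.33 in lean adipose tissue and -0.33 to 0.49 in the lean PFC. Genes called in the ZDF liver numbered 191 to 386 without 1 rat and 219 to 427 under the other alternatives, against 285. DESeq2 called 14 genes and limma-voom 33 in ZDF adipose tissue, against 1.

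With rat as a block, the pairing of tissues by animal, Ubd in liver over kidney was 4.97 and Psmb9 1.20, and the block changed no call. The minimum of 10 counts left out Ubd in the ZDF kidney and in adipose tissue, and both genes in the lean PFC, and DESeq2 gave no adjusted p for Ubd in ZDF over lean adipose tissue on whole egg. Ubd had at most 22 reads in a ZDF kidney, 49 in adipose tissue and 4 in a lean PFC, while Psmb9 in adipose tissue had group medians of 38 to 64 reads.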
